A study of Mus musculus with 18 samples.

Results

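The 7 sirtuin genes of the mouse, *Sirt1* to *Sirt7*, and 3 genes of the salvage of nicotinamide adenine dinucleotide (NAD), *Nampt*, *Nmrk1* and *Nnmt*, were followed in liver RNA of mice with error-prone ribosomes. Each symbol was matched to its Ensembl identifier, and all 10 were among the 22524 genes counted and among the 13353 tested, for which 50% or more of the mice of either genotype had to reach 10 counts. Female C57BL/6 mice aged 15 months were compared, 10 *Rps2*-A226Y mice (A226Y) and 8 wild-type mice (WT), with 1 RNA-Seq library per mouse. Both genotypes carried the CMV-Cre transgene, whose promoter is active throughout the body. The A226Y mice were heterozygous for a knock-in allele of the ribosomal protein gene *Rps2* that is silenced by a loxP-flanked stop cassette in exon 1 until Cre removes it, and that carries the mutation in exon 3. According to the study's methods removal was partial, so the livers were mosaics of cells with the mutant allele and cells with a silenced allele. Mutant and wild-type *Rps2* transcripts were counted together.

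Sirtuins remove acetyl and related acyl groups from proteins and use up 1 molecule of NAD for each group removed, releasing nicotinamide. In liver NAD is rebuilt from that nicotinamide through the salvage route or made from tryptophan, and *Sirt1* is best known there as a nuclear deacetylase of regulators of glucose and lipid metabolism. *Sirt6* and *Sirt7* also encode nuclear enzymes, the *Sirt2* product is mainly cytosolic, and the products of *Sirt3*, *Sirt4* and *Sirt5* are mitochondrial. *Nampt* encodes the rate-limiting enzyme of salvage, *Nmrk1* a kinase that brings nicotinamide riboside into the same route, and *Nnmt* a methyltransferase that takes nicotinamide out of it.

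Of the 10 genes, 1 rose and 3 fell in A226Y livers: *Sirt1* was higher, and *Sirt4*, *Nampt* and *Nmrk1* were lower. The call was an adjusted p-value under 0.05 in edgeR's quasi-likelihood test over all 13353 genes, by which 14.3% of all tested genes were called, 7.27% as higher and 7.03% as lower. The sequences around the RefSeq transcription starts of these 4 genes are given because they are the genes whose RNA changed. Each runs 5′ to 3′ on the gene's own strand from 250 bases before to 50 bases after the start, on GRCm38.p6: chr10:63338986-63339285 (minus strand) for *Sirt1*, chr5:115484248-115484547 (minus) for *Sirt4*, chr12:32820085-32820384 (plus) for *Nampt* and chr19:18631766-18632065 (plus) for *Nmrk1*. Capitals mark matches, on either strand and with overlaps allowed, to any of 5 motifs. The E-box was searched with the letters CACGTG. The CCAAT box was searched with the letters in its name, and the GC box with the letters GGGCGG. The cAMP response element was searched with the letters TGACGTCA. For the forkhead site the letters searched were TGTTTAC.
Sirt1: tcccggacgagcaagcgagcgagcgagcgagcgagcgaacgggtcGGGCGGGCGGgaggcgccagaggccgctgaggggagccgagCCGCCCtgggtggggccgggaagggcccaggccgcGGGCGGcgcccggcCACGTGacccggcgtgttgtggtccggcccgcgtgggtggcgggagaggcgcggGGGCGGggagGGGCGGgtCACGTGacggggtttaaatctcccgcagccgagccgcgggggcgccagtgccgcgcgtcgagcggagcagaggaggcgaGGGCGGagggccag
Sirt4: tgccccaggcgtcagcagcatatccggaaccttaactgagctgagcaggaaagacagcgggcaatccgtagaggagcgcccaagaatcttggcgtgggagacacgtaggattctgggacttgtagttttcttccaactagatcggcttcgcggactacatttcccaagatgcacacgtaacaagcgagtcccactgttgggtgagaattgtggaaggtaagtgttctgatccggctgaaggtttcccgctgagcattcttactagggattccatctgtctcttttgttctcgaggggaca
Nampt: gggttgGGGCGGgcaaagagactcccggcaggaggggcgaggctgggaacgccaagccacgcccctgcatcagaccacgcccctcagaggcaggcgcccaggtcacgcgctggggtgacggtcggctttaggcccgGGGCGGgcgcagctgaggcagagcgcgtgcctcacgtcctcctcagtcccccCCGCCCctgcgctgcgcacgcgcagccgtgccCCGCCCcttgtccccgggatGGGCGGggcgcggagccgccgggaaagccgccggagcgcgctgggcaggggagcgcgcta
Nmrk1: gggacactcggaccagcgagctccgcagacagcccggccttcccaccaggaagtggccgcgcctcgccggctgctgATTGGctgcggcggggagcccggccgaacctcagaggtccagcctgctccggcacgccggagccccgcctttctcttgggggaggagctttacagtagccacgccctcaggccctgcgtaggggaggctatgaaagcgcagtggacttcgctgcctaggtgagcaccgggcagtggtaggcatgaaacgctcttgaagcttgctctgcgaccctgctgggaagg

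The 4 promoters differed in composition. That of *Sirt1* was 79.0% G or C with 47 CpG dinucleotides, and held 2 E-boxes, 115 and 43 bases before the start, and 7 GC boxes, a pair of which overlapped. An E-box was present in 7.15% of 32851 mouse promoters of this length and a GC box in 35.7%. The *Nampt* promoter (76.3% G or C, 36 CpG) held 5 GC boxes, and the *Nmrk1* promoter (67.3%, 23 CpG) a single CCAAT box on the other strand, a motif found in 37.4% of promoters. None of the 5 motifs was in the *Sirt4* window, whose 52.0% G or C was close to the median of 52.7% over all promoters, with 15 CpG. The cAMP response element and the forkhead site, present in 1.79% and 3.65% of promoters, were in none of the 4 windows. Such a match is a string of letters and not evidence of binding. Promoter sequences were matched for 9 of the 10 genes, all but *Nnmt*.

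*Rps2*, the targeted gene, was first checked in every mouse. It ranged from 46.9 to 83.0 CPM (each count relative to its TMM-scaled library size, as throughout) in A226Y with a median of 72.5, and from 103.9 to 143.1 in WT with a median of 109.2, so that all 10 A226Y mice were below all 8 WT mice. The genotypes were separated, in either direction, for 0.637% of all tested genes. For *Rps2* the log2 fold change was -0.73 ± 0.11 (SE; edgeR adjusted p = 0.000772). Total counts were 23850565 to 62126131 per library in A226Y and 25869192 to 34918732 in WT. 2 libraries stood apart, with median correlations to their own genotype of 0.9718 (A226Y mouse 29) and 0.9799 (WT mouse 33) against 0.9848 to 0.993 for the other 16. Hepatocyte markers were abundant in every liver, their summed level lying between 74114 and 174427 CPM, with *Cps1* and *Tat* higher in A226Y. The summed Kupffer cell markers were 307 to 1205 CPM in A226Y (median 419) and 463 to 945 in WT (median 671; two-sided exact permutation p = 0.046, unadjusted), and *Clec4f* was the marker of 8 that passed the test, as lower. The summed stellate cell markers were higher in A226Y, at 366 to 438 CPM (median 413) against 353 to 431 in WT (median 368; exact permutation p = 0.0345, unadjusted), while 3 of the 8, *Col1a1*, *Col1a2* and *Col3a1*, fell. The summed markers of neutrophils and monocytes (3.69 to 44.2 CPM over both genotypes), lymphocytes and plasma cells (52.4 to 729.1), sinusoidal endothelium (264 to 400.3) and cholangiocytes (12.1 to 29.9) overlapped between the genotypes, and no marker of any list was at 0 in every mouse. The part of these markers in the results below was not tested, and in whole liver fewer cells of a type and less RNA per cell cannot be told apart.

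Among the nuclear sirtuins, *Sirt1* was the gene that changed. It ranged from 15.5 to 19.2 CPM in A226Y (median 17.3) and from 11.5 to 17.0 CPM in WT (median 14.6). 7 of 10 A226Y mice exceeded every WT mouse and all 10 exceeded the WT mean, a log2 fold change of 0.28 ± 0.06 (SE; edgeR adjusted p = 0.00866). With 4 surrogate variables estimated from the counts as covariates it was 0.17 and did not pass (edgeR adjusted p = 0.29). The mice of the A226Y group were closer to one another, with a coefficient of variation of 5.76% against 11.6% in WT, a difference in spread that was not tested. *Sirt7*, whose product is a nucleolar deacetylase, lay at 31.9 to 44.9 CPM in A226Y (median 40.5) and 38.1 to 48.6 in WT (median 43.3). Its log2 fold change of -0.13 ± 0.06 did not pass the test (edgeR adjusted p = 0.171). *Sirt6*, which encodes a deacetylase of chromatin, was the lowest of the family at 1.8 to 3.67 CPM in A226Y (median 2.41) and 2.38 to 3.08 in WT (median 2.64). The A226Y values spread to both sides of the WT range, 4 below and 1 above it, and the log2 fold change was -0.09 ± 0.12 (edgeR adjusted p = 0.66).

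The single sirtuin outside the nucleus that passed was *Sirt4* (GRCm38 chr5:115478010-115484725, minus strand). It encodes a mitochondrial enzyme known as a restraint on glutamate dehydrogenase. Its level ran from 5.74 to 8.35 CPM in A226Y, with a median of 7.02, and from 7.61 to 11.4 CPM in WT, with a median of 8.67. 9 of the 10 A226Y mice were below every WT mouse, and the log2 fold change was -0.37 ± 0.08 (edgeR adjusted p = 0.00685; two-sided exact permutation p = 0.00016). No 50-base stretch of its exons occurs in another annotated gene.

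The other sirtuins had negative log2 fold changes that did not pass. *Sirt2*, encoding the cytosolic tubulin deacetylase, was at 45.5 to 63.9 CPM in A226Y (median 54.7) and 49.9 to 67.3 in WT (median 60.2), a log2 fold change of -0.15 ± 0.07 (edgeR adjusted p = 0.14). *Sirt3*, encoding the main mitochondrial deacetylase, was at 71.7 to 112.6 CPM in A226Y (median 106) and 91.7 to 141.4 in WT (median 114), a log2 fold change of -0.20 ± 0.09 (edgeR adjusted p = 0.149). *Sirt5*, encoding the mitochondrial desuccinylase, was at 5.76 to 11.6 CPM in A226Y (median 7.5) and 6.35 to 12.2 in WT (median 9.33), a log2 fold change of -0.23 ± 0.14 (edgeR adjusted p = 0.289). The ranges overlapped in all 3, with 2, 3 and 2 A226Y mice below every WT mouse and 2, 6 and 1 WT mice above every A226Y mouse. In *Sirt3* and *Sirt5* 10.64% and 14.18% of the 50-base stretches of the exons also occur in other genes, in *Sirt3* through the overlapping opposite-strand neighbours *Ric8a* and *Psmd13*, so their counts are less certain than those of *Sirt1* (1.01%).

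**Figure D1:**
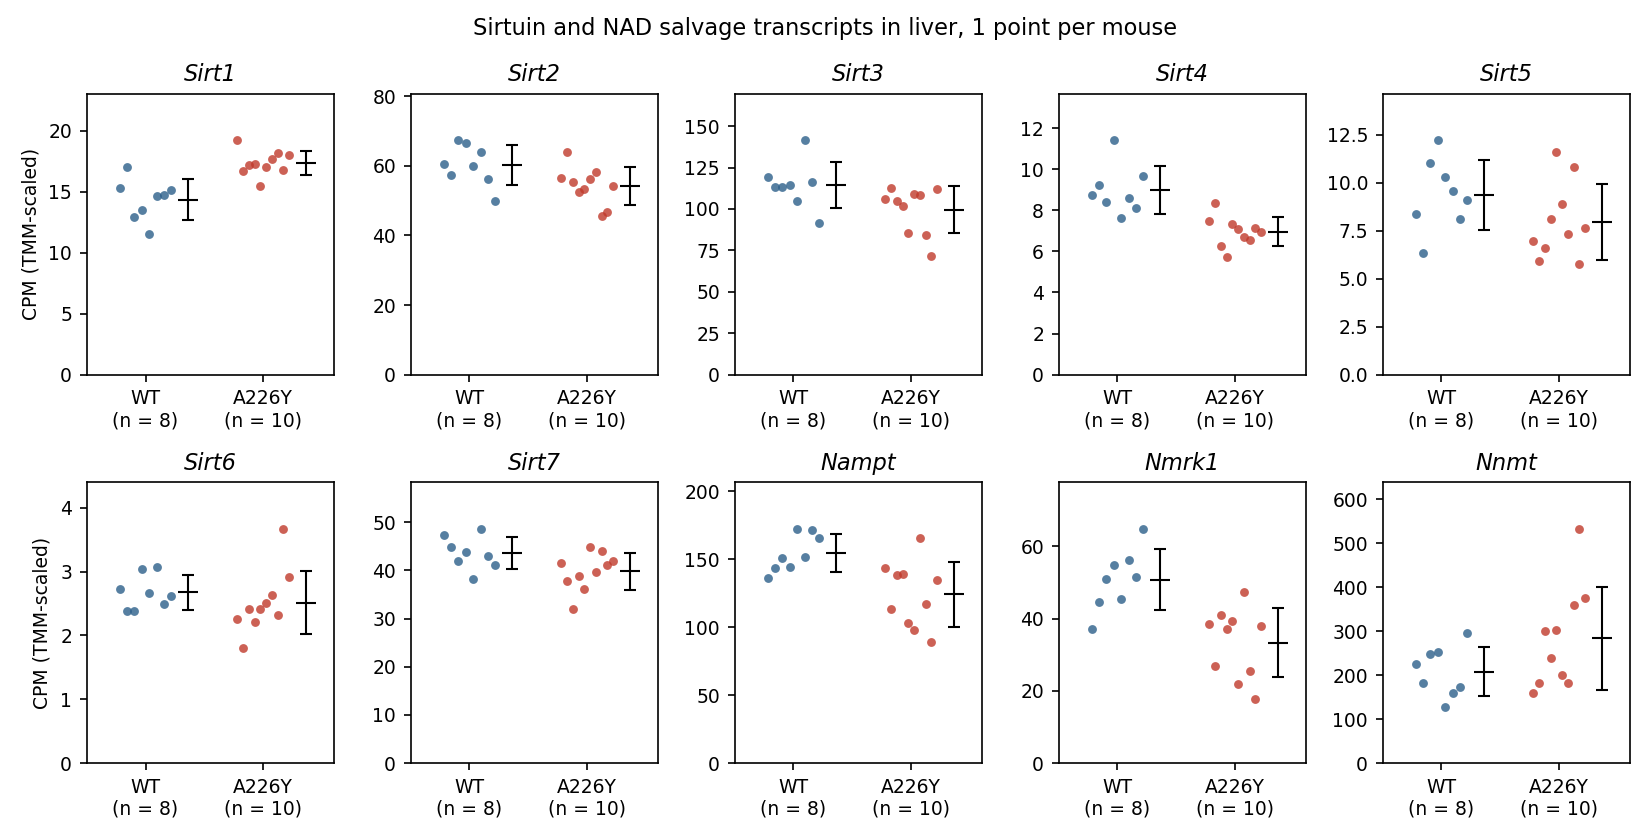
Level of each of the 10 transcripts in CPM (y axis from 0, own scale per panel) in each WT mouse (n = 8) and A226Y mouse (n = 10), with the mean and SD of each genotype as bars. *Sirt1* was mostly above the WT range in A226Y and *Sirt4* mostly below it, with 9 of 10 mice under every WT mouse.

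*Sirt1* was then set against each of its 6 paralogs within each mouse, as the difference of their log2 CPM values, which removes the scaling of the library. The shift of this difference from WT to A226Y was positive against all 6 and passed a two-sided exact permutation test over all 43758 divisions of the mice, with p-values adjusted over the 6 comparisons. All 6 share the values of *Sirt1*, and against 58.0% of the 13352 other tested genes the shift was also positive with an unadjusted exact p under 0.05. Among the paralogs it was largest against *Sirt4*, at 0.64 (95% interval 0.46 to 0.84; exact adjusted p = 6.86e-05). In *Sirt4* the difference ran from 1.0 to 1.58 in A226Y and from 0.25 to 0.88 in WT, so every A226Y mouse was above every WT mouse. The same was true of *Sirt7*, with -1.39 to -0.89 in A226Y against -1.73 to -1.40 in WT and a shift of 0.42 (0.29 to 0.55; exact adjusted p = 6.86e-05). For both, the raw p was 2.29e-05, the smallest that these divisions can give. When *Sirt1* was set against each of the 13352 other tested genes in this way, every A226Y mouse was above every WT mouse for 1.47% of them.

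Against the other 4 paralogs the genotypes overlapped. The shift was 0.49 (0.27 to 0.71; exact adjusted p = 0.000548) against *Sirt3* and 0.44 (0.22 to 0.65; exact adjusted p = 0.000926) against *Sirt2*, with 5 and 7 A226Y mice above every WT mouse. It was 0.53 (0.13 to 0.92; exact adjusted p = 0.0146) against *Sirt5* and 0.39 (0.13 to 0.64; exact adjusted p = 0.00946) against *Sirt6*, with 3 and 4. The intervals of the 6 shifts overlapped one another. All 6 passed with a prior count of 0.5, with group medians, with the length and GC offsets, without both libraries that stood apart and without any single mouse. The comparison was not run with surrogate variables.

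**Figure D2:**
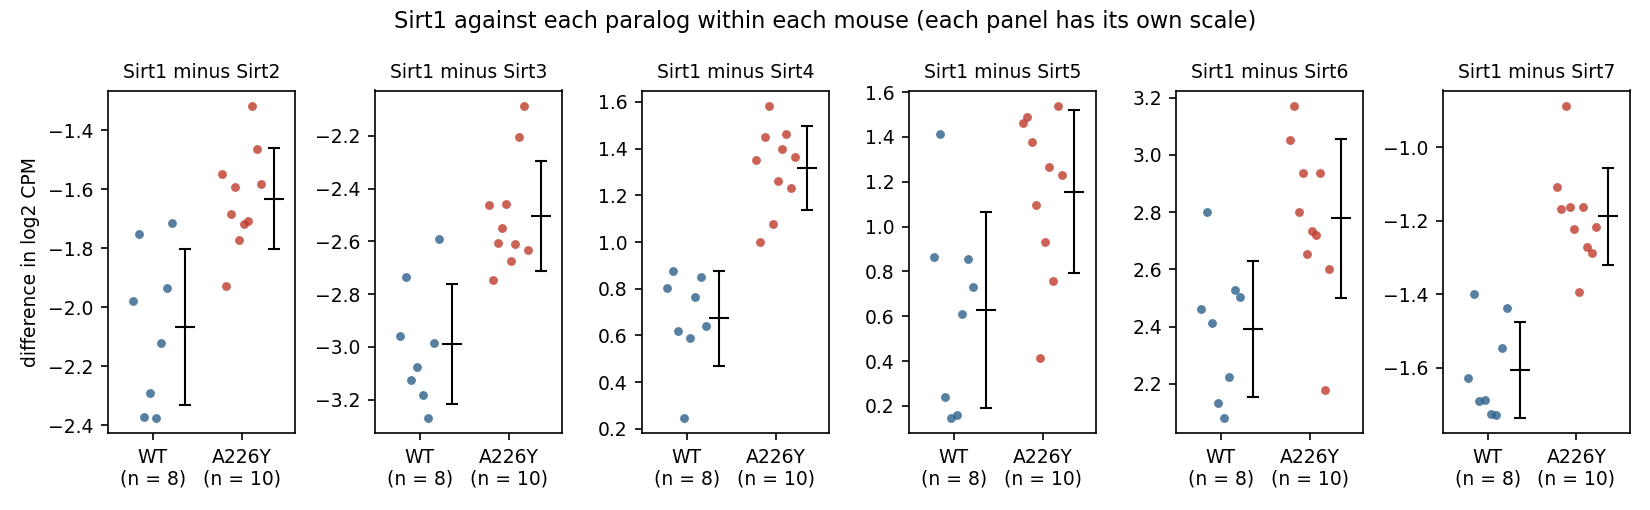
Difference in log2 CPM between *Sirt1* and each of its 6 paralogs within each mouse (y axis, own scale per panel), for WT (n = 8) and A226Y (n = 10), with mean and SD. For *Sirt4* and *Sirt7* the A226Y and WT mice did not overlap, and for the other 4 they did.

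The genes differed widely in abundance. On a scale of CPM per kilobase of exon (union of the annotated exons), WT livers held 132 ± 36.0 of *Nnmt* (mean ± SD, n = 8), 30.6 ± 2.71 of *Nampt*, 19.1 ± 2.34 of *Sirt3*, 13.7 ± 2.29 of *Nmrk1* and 11.9 ± 1.15 of *Sirt2*. *Sirt7* followed at 8.47 ± 0.661, *Sirt4* at 3.74 ± 0.486, *Sirt1* at 2.69 ± 0.313, *Sirt5* at 1.54 ± 0.299 and *Sirt6* at 0.961 ± 0.0968. *Sirt1* was thus among the scarcer sirtuins. Neighbours whose WT ranges overlapped were *Sirt3* and *Nmrk1*, *Nmrk1* and *Sirt2*, *Sirt4* and *Sirt1*, and *Sirt5* and *Sirt6*. In A226Y livers *Sirt1* (3.26 ± 0.188, n = 10) had the higher level per kilobase than *Sirt4* (2.90 ± 0.299) in 8 of 10 mice, whereas *Sirt4* had the higher in 8 of 8 WT mice. *Nmrk1* (9.03 ± 2.59) came after *Sirt2* (10.8 ± 1.06) in A226Y, their ranges overlapping. The order depends on the length used: with that of the longest transcript, 8 and not 7 of the other genes were above *Sirt1* in WT, and *Sirt1* was above *Sirt4* in 6 of 10 A226Y mice.

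In the salvage route *Nampt* and *Nmrk1* fell. *Nampt* (GRCm38 chr12:32819545-32853349, plus strand) ranged from 89.4 to 165.4 CPM in A226Y (median 126) and from 136 to 172 CPM in WT (median 151). 6 A226Y mice were below every WT mouse and the log2 fold change was -0.32 ± 0.10 (edgeR adjusted p = 0.045; exact permutation p = 0.00706). This call was close to the threshold: it was lost when any of 13 of the 18 mice was left out (adjusted p up to 0.084), with RLE size factors (0.0521), library sizes alone (0.0747) or a looser filter on low counts (0.0591), and without both libraries that stood apart (log2 fold change -0.25, adjusted p = 0.0768), all in edgeR. *Nmrk1* (GRCm38 chr19:18631950-18652428, plus strand) had the larger change, from 37.0 to 64.8 CPM in WT (median 51.3) to 17.8 to 47.3 CPM in A226Y (median 37.4). 4 A226Y mice were below every WT mouse and the log2 fold change was -0.61 ± 0.16 (edgeR adjusted p = 0.0157).

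*Nnmt* (GRCm38 chr9:48591877-48605153, minus strand) varied most from mouse to mouse. It ranged from 160.2 to 532.7 CPM in A226Y (median 269) and from 127.9 to 297 CPM in WT (median 203), with a coefficient of variation of 41.0% and 27.2%. 5 A226Y mice exceeded every WT mouse, but the log2 fold change of 0.45 ± 0.22 did not pass (edgeR adjusted p = 0.178). Mouse 29, the A226Y library that stood apart, had the highest *Nnmt* and *Sirt6* and the lowest *Sirt3*, *Sirt5*, *Nampt* and *Nmrk1* of its genotype.

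In that fit with surrogate variables, edgeR called none of the 10 genes (4 had an unadjusted p-value under 0.05), and 50 genes passed in all. *Sirt4* then had a log2 fold change of -0.25 (adjusted p = 0.263), *Nampt* -0.31 (0.251) and *Nmrk1* -0.57 (0.179). Those of *Sirt2*, *Sirt5* and *Nnmt* shrank to -0.03, -0.06 and 0.13. Those of *Sirt3*, *Sirt6* and *Sirt7* were -0.16, -0.12 and -0.14. DESeq2 and limma-voom without such covariates each called 4 of the 10 genes. No log2 fold change of the 10 genes changed its sign under any alternative tried.

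Whether the 10 transcripts varied together was examined over the 18 mice after each genotype's mean was subtracted. *Sirt1* had no correlation with the other 9 that passed after adjustment, permutations being made within genotypes: the closest were *Sirt7* (r = 0.49, permutation p = 0.0257, adjusted p = 0.155; rho = 0.48, p = 0.0469, adjusted p = 0.382) and *Sirt5* (r = -0.49, p = 0.0345, adjusted p = 0.155; rho = -0.42, p = 0.0848, adjusted p = 0.382). Without the 2 mice farthest from the median of *Sirt1*, r was 0.34 for *Sirt7* and -0.49 for *Sirt5*. The 3 salvage genes were compared with one another after their values had been seen. *Nampt* and *Nmrk1* went together (r = 0.78, permutation p = 0.00098, adjusted over 3 comparisons p = 0.00294; rho = 0.69, p = 0.00727, adjusted p = 0.0218). Within A226Y r was 0.84 and within WT 0.46, and without the 2 mice farthest from the median, both A226Y, it was 0.60. *Nnmt* gave r = -0.44 with *Nampt* (permutation p = 0.11, adjusted p = 0.165; rho = -0.37, p = 0.165, adjusted p = 0.247) and r = -0.23 with *Nmrk1* (p = 0.418, adjusted p = 0.418; rho = -0.05, p = 0.867, adjusted p = 0.867), and without those mice r was -0.38 and near 0.

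The genes most like *Sirt1*, *Nampt* and *Nnmt* across the mice were listed by the same centred correlation, as the highest values among 11940 genes whose mean reached 1 CPM, and therefore with no test. For *Sirt1* they were *Iws1* (r = 0.85), *Nek7* (0.85), *Taf1d* (0.83), *Topors* (0.81) and *Dgcr8* (0.81), of which *Nek7*, a kinase of mitosis and the inflammasome, was called as higher in A226Y (log2 fold change 0.32 ± 0.06, edgeR adjusted p = 0.00309). For *Nampt* they were *Zfp148* (0.89), *Ak4* (0.86), *Homer2* (0.85), *Atxn7* (0.83) and *Arhgap21* (0.82), none of which was called as lower with *Nampt*, while *Zfp148* was called as higher (0.18 ± 0.05, edgeR adjusted p = 0.0305). For *Nnmt* they were *Mat1a* (0.89), *Urad* (0.89), *Asl* (0.87), *Gm21983* (0.86) and *Rab4b* (0.86). *Mat1a* encodes the liver enzyme that makes S-adenosylmethionine, the methyl donor of the *Nnmt* product. Its mean was 6852 CPM in A226Y and 4953 CPM in WT (log2 fold change 0.47 ± 0.14, edgeR adjusted p = 0.0271), and its r with *Nnmt* remained 0.89 without the 2 mice farthest from the median of *Nnmt*. All these values come from the same 18 libraries and share their scaling and tissue makeup.

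**Figure D3:**
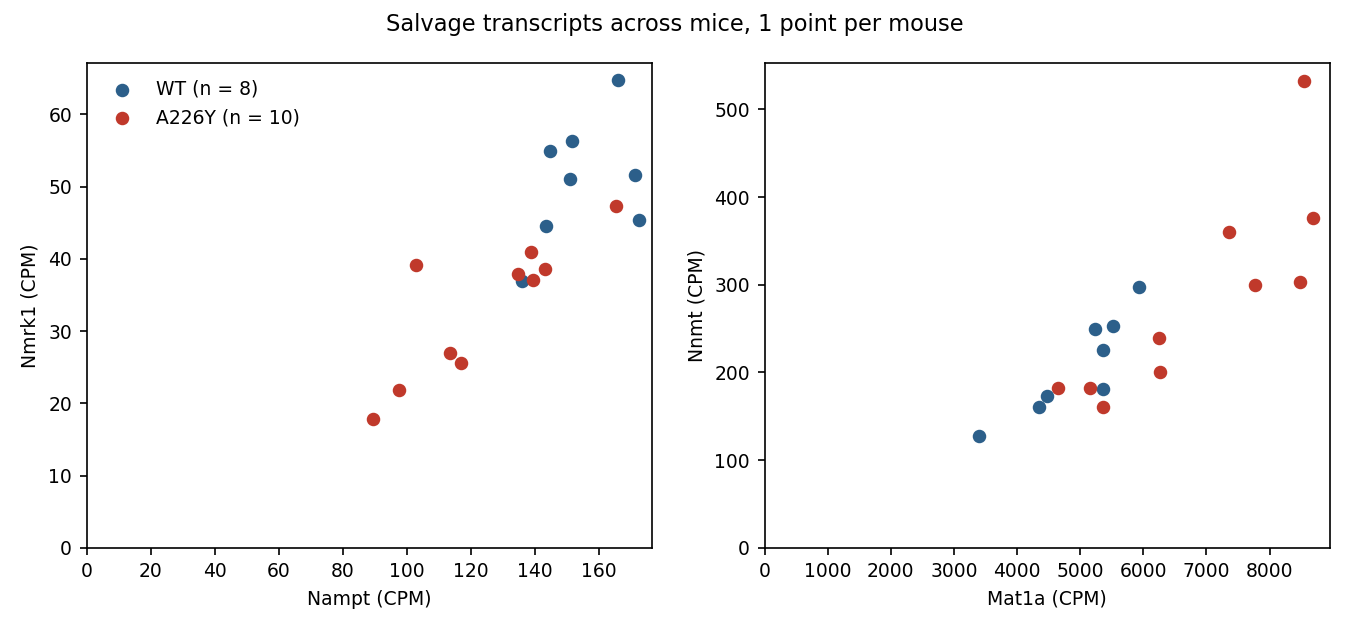
*Nmrk1* against *Nampt* (left) and *Nnmt* against *Mat1a* (right) in CPM on linear axes from 0, with 1 point per mouse for WT (n = 8) and A226Y (n = 10). The mouse lowest in *Nampt* (89.4 CPM) was also lowest in *Nmrk1* (17.8 CPM), but an A226Y mouse at 102.8 CPM of *Nampt* had 39.2 CPM of *Nmrk1*, above the A226Y median, and *Nnmt* ran from 127.9 to 532.7 CPM with rising *Mat1a*.

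Other genes were taken from lists of NAD synthesis, transport and consumption, of the zinc-dependent deacetylases, and of regulators and substrates of sirtuins. Of the 80 genes tested, 18 (22.5%) were called, and of the 38 in the NAD lists 7 (18.4%), against 14.3% of all genes. The list with the most calls was the route from tryptophan to NAD, in which 2 of 8 tested genes rose and 3 fell (median log2 fold change -0.01, against -0.004 over all genes). *Tdo2*, the rate-limiting entry to the route in hepatocytes, ranged from 2093 to 2859 CPM in A226Y (median 2464) and from 1052 to 2132 in WT (median 1643). 9 of 10 A226Y mice exceeded every WT mouse, with a log2 fold change of 0.55 ± 0.12 (edgeR adjusted p = 0.00556). *Ido2*, which encodes an enzyme for the same step, moved the other way, from 66.4 to 99.9 CPM in WT (median 86.2) to 34.9 to 72.5 in A226Y (median 53.8). Its log2 fold change was -0.67 ± 0.12 (edgeR adjusted p = 0.00213), with 8 A226Y mice below every WT mouse. The remaining entry enzyme, *Ido1*, had at most 2 counts in any mouse and was not tested.

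Further along the route, *Afmid*, which encodes the formamidase of the second step, lay at 44.0 to 157.6 CPM in A226Y (median 121) and 123.4 to 229.5 in WT (median 175), a log2 fold change of -0.62 ± 0.17 (edgeR adjusted p = 0.0179). *Acmsd* encodes the decarboxylase that diverts the route away from NAD. Its level was 9.83 to 43.5 CPM in A226Y (median 17.2) and 5.36 to 13.9 in WT (median 8.97), a log2 fold change of 1.13 ± 0.29 (edgeR adjusted p = 0.0144). 7 A226Y mice exceeded every WT mouse, and with 4 surrogate variables as covariates the log2 fold change was 0.24 (edgeR adjusted p = 0.644). In the same fit it was 0.25 for *Tdo2* (0.34), -0.44 for *Ido2* (0.115) and -0.50 for *Afmid* (0.115). *Haao*, which makes the compound that *Acmsd* acts on and was named after its value was seen, fell by 0.36 ± 0.09 on the log2 scale (226.1 to 375.3 CPM in A226Y and 280.0 to 443.9 in WT; edgeR adjusted p = 0.014). The other 3 genes did not pass: *Kynu* had a log2 fold change of 0.29 (edgeR adjusted p = 0.0631), *Kmo* 0.02 (0.902) and *Qprt*, whose product closes the route, -0.04 (0.818). With DESeq2, library sizes alone or the length offset, 6 and not 5 of the 8 tested genes were called.

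**Figure D4:**
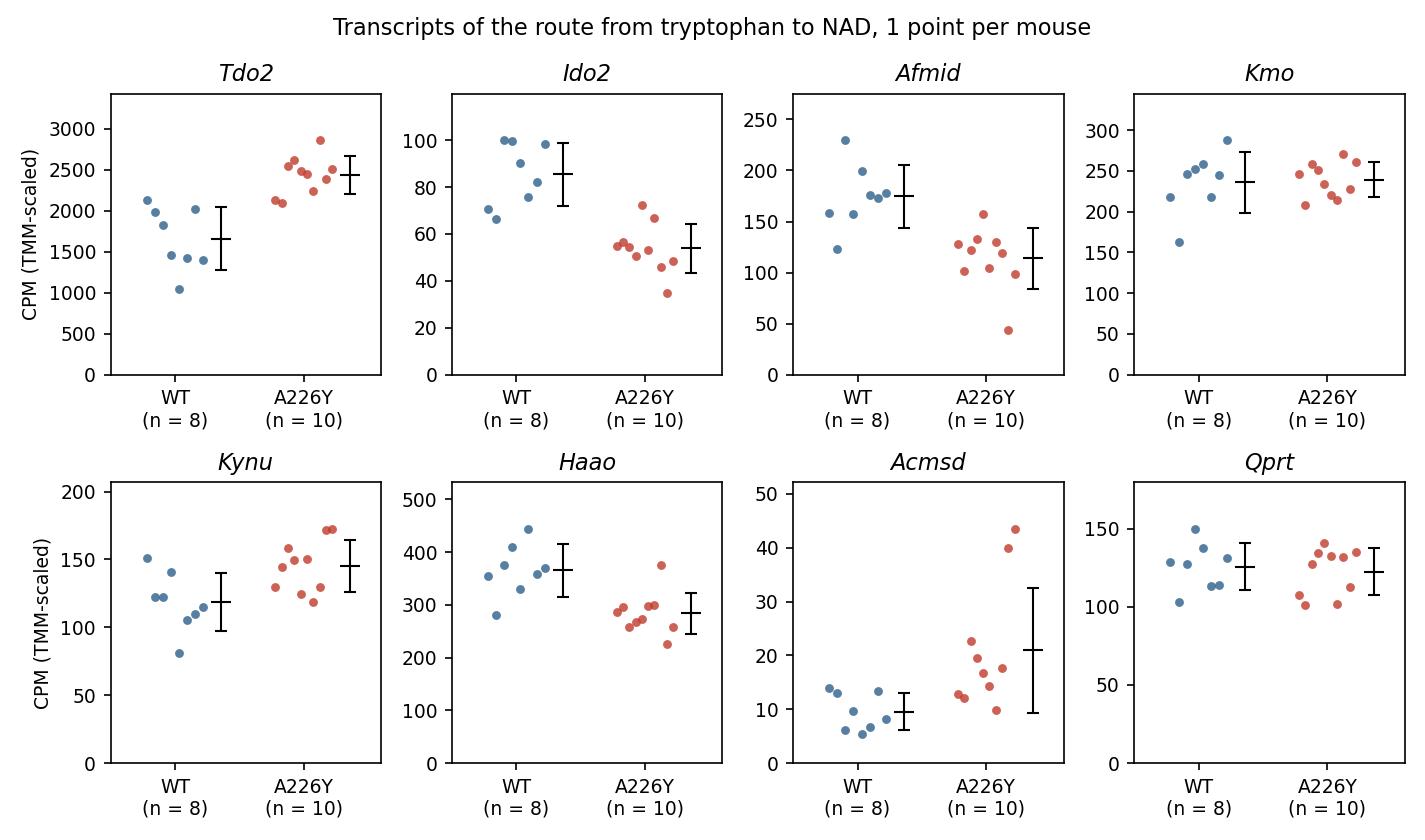
Level in CPM (y axis from 0, own scale per panel) of the 8 tested transcripts of the route from tryptophan to NAD in each WT mouse (n = 8) and A226Y mouse (n = 10), with mean and SD. *Tdo2* and *Acmsd* were higher in A226Y, and *Ido2*, *Afmid* and *Haao* were lower.

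The shared last steps of NAD synthesis and the route from nicotinic acid had no call among 5 tested genes in edgeR, DESeq2 or limma-voom with all 18 mice, and 1 in edgeR without both libraries that stood apart. *Nmnat3*, encoding the mitochondrial adenylyltransferase, was the gene of this list with an unadjusted p-value under 0.05, with 7.59 ± 0.957 CPM in A226Y (SD, n = 10) and 9.25 ± 1.62 in WT (n = 8) and a log2 fold change of -0.28 ± 0.10 (edgeR adjusted p = 0.0661). *Nmnat1*, its nuclear counterpart, was at 14.1 ± 1.01 and 14.1 ± 1.5 CPM. *Naprt*, which feeds nicotinic acid into NAD, was at 152 ± 12.6 and 162 ± 10.8 CPM (log2 fold change -0.10 ± 0.06, edgeR adjusted p = 0.278). *Nmrk2*, the paralog of *Nmrk1*, had no count in any mouse. The 4 genes of NAD phosphorylation and transport and the 4 of nicotinamide handling had no call by any of the 3 tools and none with an unadjusted p-value under 0.05 in edgeR without offsets (1 of nicotinamide handling with the length offset and 1 with the GC offset). They included *Slc25a51*, the mitochondrial NAD carrier, at 94.8 ± 35.2 and 78.7 ± 9.83 CPM, and *Aox3*, which oxidises nicotinamide derivatives, at 151 ± 29.2 and 182.0 ± 50 CPM.

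Among 17 other NAD-consuming enzymes, 1 rose and 1 fell, which is 11.8% of them against 14.3% of all tested genes. Their median log2 fold change was -0.11. *Parp10*, encoding a mono-ADP-ribosyltransferase, was at 17.0 to 30.9 CPM in A226Y (median 20.7) and 21 to 31.5 in WT (median 27.2), a log2 fold change of -0.34 ± 0.09 (edgeR adjusted p = 0.0215). *Tnks2*, encoding a tankyrase, was at 57.1 to 64.5 CPM in A226Y (median 62.6) and 53.2 to 58.1 in WT (median 55.1), a log2 fold change of 0.16 ± 0.04 (edgeR adjusted p = 0.0139), and this call was lost with an offset for transcript length (0.212) or GC content (0.0712). *Parp1*, the main nuclear consumer of NAD, had a log2 fold change of -0.16 (edgeR adjusted p = 0.0958) and *Cd38*, the main NAD glycohydrolase, -0.01 (0.957). The zinc-dependent deacetylases, which use no NAD, had 2 of 11 genes (18.2%) lower and none higher, with a median of -0.09. *Hdac5* fell by 0.36 ± 0.09 on the log2 scale (25.4 to 35.5 CPM in A226Y and 29.3 to 45.3 in WT; edgeR adjusted p = 0.0105) and *Hdac3* by 0.20 ± 0.05 (26.8 to 32.3 and 28 to 36.5 CPM; edgeR adjusted p = 0.015). With 4 surrogate variables the log2 fold change was -0.15 for *Hdac5*, -0.11 for *Hdac3* and -0.21 for *Parp10* (edgeR adjusted p = 0.517, 0.422 and 0.338).

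Of 8 genes known to act on *Sirt1*, 1 rose and 2 fell, which is 37.5% of them against 14.3% of all tested genes. *Hic1*, a repressor of *Sirt1* transcription, was at 3.17 to 5.19 CPM in A226Y (median 3.69) and 4 to 7.49 in WT (median 4.85), a log2 fold change of -0.49 ± 0.13 (edgeR adjusted p = 0.0154). 7 A226Y mice were below every WT mouse, and with 4 surrogate variables the log2 fold change was -0.12 (edgeR adjusted p = 0.711). *Prkaa1*, a catalytic subunit of the kinase AMPK, had a log2 fold change of 0.21 ± 0.06 (edgeR adjusted p = 0.03) and *Stk11*, encoding the kinase that activates AMPK, -0.21 ± 0.06 (edgeR adjusted p = 0.0346), both calls being lost with an offset for GC content (0.176 and 0.177). The protein inhibitor *Ccar2* and the activator *Rps19bp1* had log2 fold changes of 0.03 and -0.04 (edgeR adjusted p = 0.82 and 0.75). The remaining genes of the list did not pass: *E2f1* had -0.37 (edgeR adjusted p = 0.125), *Prkaa2* 0.16 (0.278) and *Usp22* 0.05 (0.678).

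Of 13 genes whose proteins *Sirt1* is known to deacetylate, 2 rose and 2 fell, with a median log2 fold change of -0.03. That is 30.8% of them, against 14.3% of all tested genes. *Ppargc1a*, the coactivator of gluconeogenic and mitochondrial genes, was at 14.4 to 30.1 CPM in A226Y (median 19.2) and 9.67 to 19.7 in WT (median 12.7), a log2 fold change of 0.74 ± 0.16 (edgeR adjusted p = 0.00539). *Srebf1*, the regulator of fatty acid synthesis, was at 42.3 to 157.6 CPM in A226Y (median 86.3) and 113.5 to 314.3 in WT (median 188), a log2 fold change of -1.22 ± 0.26 (edgeR adjusted p = 0.00551). 4 A226Y mice exceeded every WT mouse in *Ppargc1a*, and 8 were below every WT mouse in *Srebf1*. With 4 surrogate variables the log2 fold changes were 0.19 for *Ppargc1a* and -0.48 for *Srebf1* (edgeR adjusted p = 0.388 and 0.37). In that fit they were -0.44 for *Srebf2* and 0.26 for *Hif1a*, which did not pass either (edgeR adjusted p = 0.168 and 0.0505). *Hif1a* rose by 0.22 ± 0.05 (51.4 to 62.6 CPM in A226Y and 46.4 to 54.8 in WT; edgeR adjusted p = 0.00627) and *Srebf2*, the regulator of cholesterol synthesis, fell by 0.47 ± 0.12 on the log2 scale (45.0 to 73.8 and 56.4 to 102.7 CPM; edgeR adjusted p = 0.0151), the latter being -0.40 with an adjusted p of 0.0543 with an offset for GC content. *Foxo1*, *Trp53* and *Ppara* had log2 fold changes of 0.05, 0.04 and 0.00 (edgeR adjusted p = 0.821, 0.729 and 0.987). These are levels of RNA and say nothing of the acetylation of the proteins.

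Of 10 substrates of the mitochondrial sirtuins, 1 rose and 1 fell, both enzymes of the urea cycle. *Cps1*, a *Sirt5* substrate and the entry enzyme of the cycle, was at 3222 to 6073 CPM in A226Y (median 4889) and 2079 to 4269 in WT (median 3385), a log2 fold change of 0.55 ± 0.14 (edgeR adjusted p = 0.0137). *Otc*, a *Sirt3* substrate, was at 172.6 to 431.8 CPM in A226Y (median 326) and 334.2 to 508.3 in WT (median 478), a log2 fold change of -0.47 ± 0.13 (edgeR adjusted p = 0.0238). *Glud1*, the enzyme that *Sirt4* is known to restrain, was at 1169 CPM on average in A226Y and 1387 in WT, a log2 fold change of -0.25 ± 0.09 that did not pass (edgeR adjusted p = 0.0577). With 4 surrogate variables the log2 fold change was 0.11 for *Cps1* and -0.23 for *Otc* (edgeR adjusted p = 0.7 and 0.22). In that fit none of the 80 list genes passed in edgeR (11 had an unadjusted p-value under 0.05), while DESeq2 and limma-voom without them called 23 and 19.

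**Figure D5:**
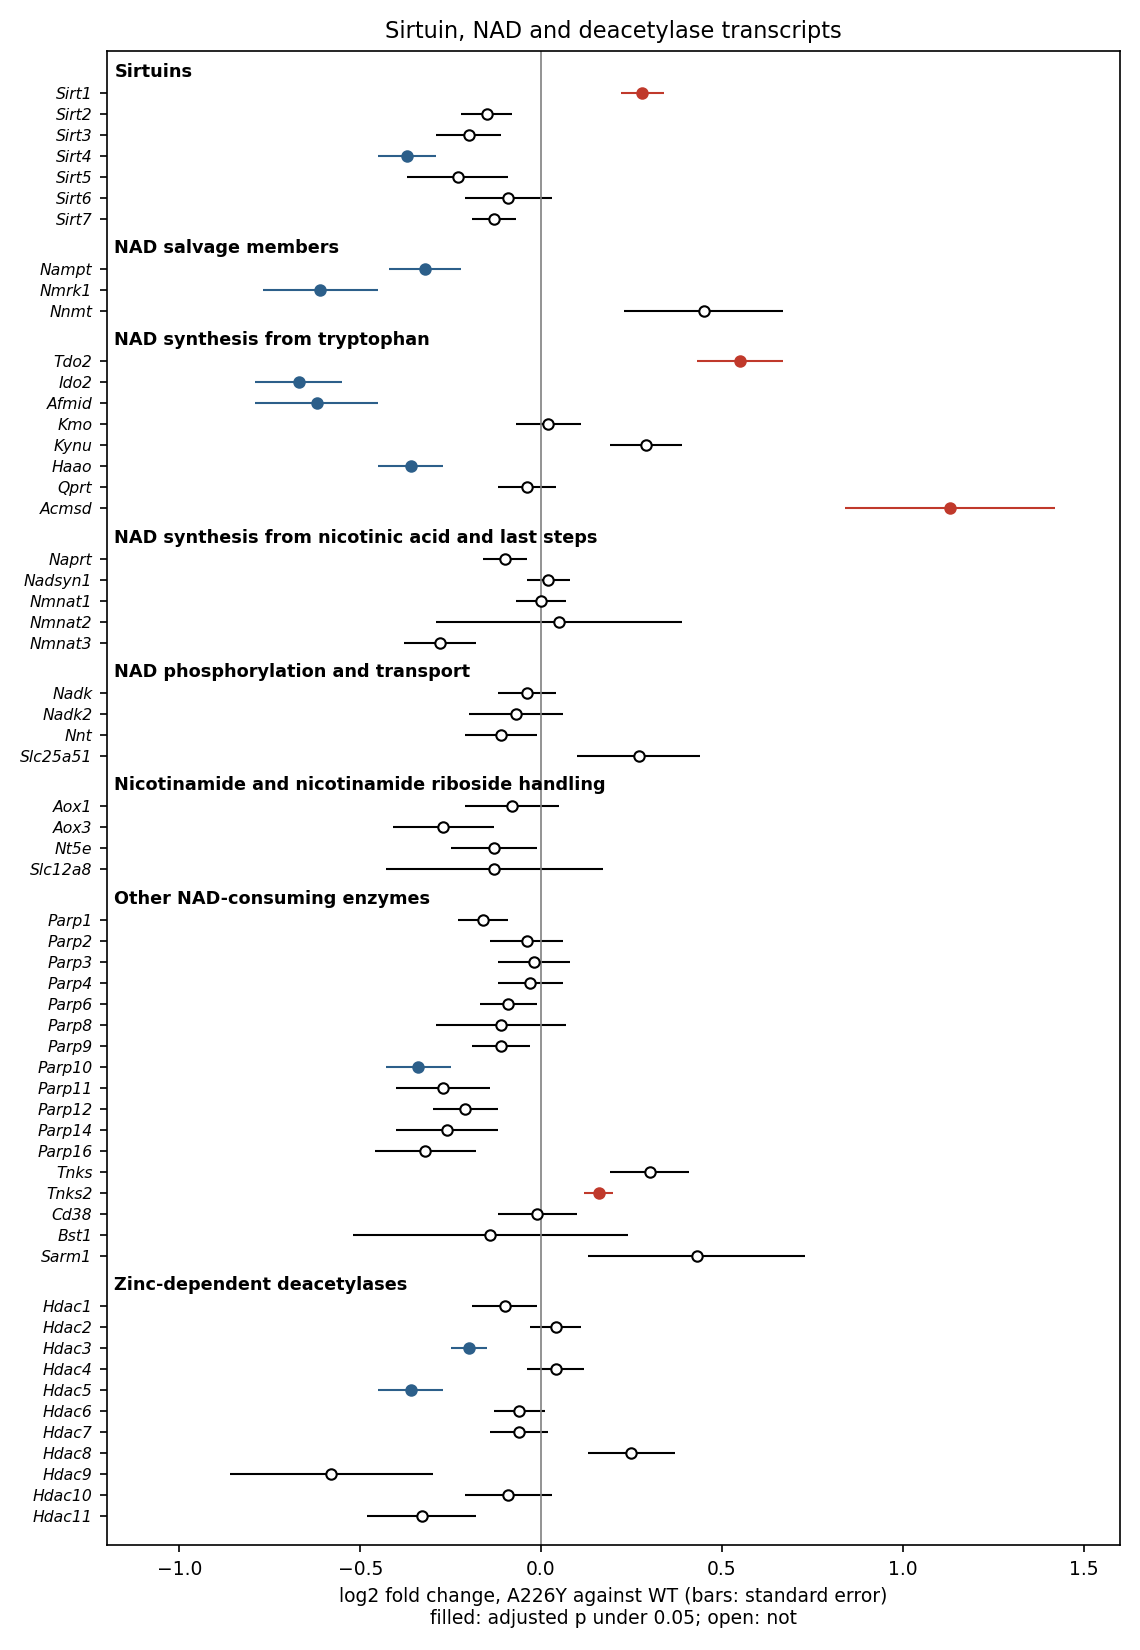
Log2 fold change between A226Y and WT (x axis, bars showing 1 SE) of each tested gene of the sirtuin, NAD and deacetylase lists, filled where edgeR's adjusted p was under 0.05. *Sirt1* was the sirtuin with a positive value, and calls in both directions were found in the tryptophan list, from *Acmsd* at 1.13 to *Ido2* at -0.67.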

How the data were processed

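Liver RNA was sequenced from 10 A226Y and 8 WT mice with single-end reads, 1 library per mouse, and the authors deposited raw counts of reads per Ensembl gene and mouse as whole numbers with no normalization. The study's methods name RSEM with an Ensembl annotation, whereas the submitters' processing notes list bcl2fastq, fastp, STAR, featureCounts and MultiQC with GRCm38, and which of these gave the deposited counts is not stated. Strand was not stated to be used, so overlapping genes could share reads. Of 22524 identifiers 22214 were matched to GENCODE M21 (GRCm38). No 2 mice of a genotype agreed within sampling noise (chi-square per degree of freedom at least 16.5).

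From the counts, genes reaching 10 counts in 50% or more of either genotype's mice were fitted in edgeR 4.0.16 (R 4.3.3; TMM scaling, quasi-likelihood test, two-sided, no covariates, Benjamini-Hochberg adjustment over 13353 genes). The SE of a log2 fold change is its size over the square root of F. Biological variation between mice was 0.194 (common coefficient). With 23850565 or more counts per library, counting error among the 10 genes was largest for *Sirt6*, and it was larger still for list genes under 1 CPM. Log2 CPM values (prior count 2) were compared by exact permutation over 43758 divisions of the mice, intervals (95%) by inverting that test, and correlations by 100000 permutations within genotypes. Alternatives were other scalings, filters, DESeq2 1.42.0, limma-voom 3.58.1, 4 surrogate variables (sva 3.50.0), lowess offsets on transcript length or GC content (known for 99.6% of tested genes), and leaving out each mouse. In simulated counts for this comparison (13254 genes) the edgeR test recovered 19 of 67 genes changed 1.25-fold, 53 of 67 changed 1.5-fold and 54 of 66 changed 2-fold, with 7 false calls. Each simulated gene was drawn independently, with no factor shared among genes, so these figures do not cover variation of the kind that surrogate variables take up. The 10 genes, the pathway lists and the marker lists were chosen with earlier results of these data known. Genes named from the lists are the called ones, at most the 4 with the largest change per list, and any other list gene was chosen after its value was seen. The symbol *Pnp* was not matched. Promoter sequences are RefSeq's.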

Additional observations from a re-analysis of the deposited data

Results flagged for a closer look

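A mouse far from the others of its genotype, by Dixon's test at the 95% level, was found in 4 of the 98 groups of 8 or 10 mice that were tested, where chance alone gives about 1 in 20. Mouse 29 of A226Y had 44.0 CPM of *Afmid* where the next lowest A226Y mouse had 98.8, and 30.9 CPM of *Parp10* where the next highest had 22.4. Mouse 6 of WT had 28 CPM of *Hdac3* where the next lowest WT mouse had 33.8. Mouse 14 of WT had a difference of 0.248 in log2 CPM between *Sirt1* and *Sirt4* where the next lowest WT mouse had 0.591.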

How the results depend on the processing

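With 4 surrogate variables as covariates 50 genes were called instead of 1910, 0 of the 10 genes instead of 4 and 0 of the 80 list genes instead of 18, and *Sirt1* had a log2 fold change of 0.17 (adjusted p = 0.29); the cause was not tested. Leaving out 1 mouse at a time gave 1255 to 2560 called genes, the lowest without WT mouse 14, 3 to 4 of the 10 genes, 16 to 25 list genes and 0.24 to 0.32 for *Sirt1*. With library sizes alone 67.9% of the called genes were higher in A226Y. *Sirt4* and *Nmrk1* lost their calls with the surrogate variables alone. Other calls lost were *Parp10* and *Hdac3* with library sizes alone (0.0564 and 0.0554), *Parp10* without WT mouse 24 (0.0542) and *Otc* without WT mouse 14 (0.051), and those of *Stk11* and *Prkaa1* were lost under several settings. Without both libraries that stood apart, an alternative chosen after seeing the data, 2363 genes, 3 of the 10 genes and 21 list genes were called, and *Sirt1* had 0.30 (adjusted p = 0.00951). All these are edgeR values. Of the 10 genes and the called list genes, at most the 4 with the largest change per list, none changed its sign. Other named genes did: of the 8 tested genes of the tryptophan route, 6 kept their sign with the GC offset. With the length offset or library sizes alone, 7 did. Of all 80 list genes, 70 kept the sign of their log2 fold change with library sizes alone, 71 with the length offset, 70 with the GC offset and 63 with the surrogate variables. No paired analysis was possible because no mouse number occurs in both genotypes. Depth limited *Sirt6*, with 43 to 143 counts per mouse, and the list genes under 1 CPM.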
